A study of Drosophila melanogaster with 8 samples.

Results

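The structural proteins of the insect cuticle were examined gene by gene in whole adult Drosophila melanogaster females that carried mutant alleles of the nuclear receptor gene Hr78, also called DHR78. The genes were taken by FlyBase symbol: every row of the deposited count table whose gene symbol begins with Cpr, Lcp, Ccp84, Pcp, Edg or Twdl, without the cytochrome P450 reductase gene Cpr (CG11567), which only shares the letters. This gave 53 genes of 12082 in the table. They were 33 Cpr, 11 Twdl and 6 Lcp genes and 1 gene each of Ccp84, Pcp and Edg, out of 124 genes so named in the RefSeq annotation. The other genes of those names are not analysed here.

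Insect cuticle is a composite of chitin fibres and proteins that the epidermis secretes to its outer face. Most of its proteins belong to the Cpr group, whose members carry the Rebers-Riddiford chitin-binding motif. Most Lcp (larval cuticle), Pcp (pupal cuticle), Ccp84 and Edg (ecdysone-dependent) genes belong to the same group by sequence but were named earlier, for the stage or locus at which they were found. The Twdl (Tweedle) proteins form a separate family, known from a dominant mutation of TwdlD that makes the body squat. Larvae, pupae and adults use different sets of these genes, each switched on around a moult by the pulse of ecdysone. Adult cuticle is largely laid down before and soon after eclosion.

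The mutants were btl>DHR78; DHR78[1]/[3] females, which carry a pair of different Hr78 alleles. The controls were btl>DHR78 females of matched background. In both, the driver of btl, the tracheal FGF receptor gene, expressed a DHR78 transgene, so the controls carried it too. All flies were 1 week old and had been kept on food with 8% yeast and 9% sugar. There were 4 polyA RNA libraries per genotype, each from 2 pooled collections of 12 whole females. Because whole bodies were sequenced, fewer cells of a type and less RNA per cell cannot be told apart.

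Library totals lay between 22608378 and 33054191 counts in the mutant and between 19544675 and 28106635 counts in the control. At that depth 3 counts equal 0.0916 to 0.155 CPM, the gene's count scaled to a common library size. Counts of 0 were kept as 0 CPM. Hr78 itself was at 71.6 ± 1.71 CPM in the mutant and 123 ± 4.22 CPM in the control (SD, n = 4 each), a log2 fold change of -0.79 with edgeR adjusted p = 4.9e-06, and reads of the transgene and of the chromosomal gene are not separated. btl was at 6.14 ± 0.622 CPM in the mutant and 6.35 ± 0.681 CPM in the control. One mutant library stood apart in markers of males. The male accessory gland list (14 of 14 genes with a row) summed to 213 CPM in mutant replicate 2, against 37.3 to 41.1 CPM in the other mutants and 35.9 to 39.8 CPM in the controls. Outside mutant replicate 2 nearly all of that sum was Acp95EF, at 35.5 to 40.8 CPM. The testis list (15 of 17 with a row) summed to 218 CPM in mutant replicate 2, 119 to 134 CPM in the other mutants and 112 to 138 CPM in the controls. Outside mutant replicate 2 most of that sum was twe, at 82.8 to 108 CPM. SP, a male seminal peptide gene, was at 5.64 CPM in that library and at 0 counts in the other libraries. Control replicates 2 and 4 stood apart in cuticle genes, which is described further on.

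Of the 53 cuticle genes, 27 had enough counts in enough libraries to be tested (edgeR's expression filter). In the mutant 4 rose and 4 fell, while 19 did not pass the threshold of 0.05, set on edgeR's quasi-likelihood p after Benjamini-Hochberg adjustment over the 10525 genes tested. The 8 called genes are 29.6% of those tested, whereas 19.6% of all genes tested were called. The 4 that rose are 14.8% against 8.46% of all genes, and the 4 that fell are 14.8% against 11.1%. Of the 4 that rose, Lcp1 entered the test through its mutant counts alone, and without it 3 of 26 rose. TwdlE had 6, 23, 9 and 8 counts in the controls. Cpr30B had 15, 26, 9 and 3 counts in the mutants, and Cpr62Ba had 16, 14, 9 and 12. These genes reached the level of the filter in all 4 libraries only in the genotype where they were higher. The shares are therefore given as a description only. The median log2 fold change of the 27 was -0.13, and that of all genes tested was 0.01. Over all genes 890 calls were higher and 1173 lower in the mutant, and upper quartile scaling gave 1499 higher and 872 lower, whereas for the cuticle genes it gave 4 and 4. The number of cuticle genes that fell was 2 without control replicate 3 or without mutant replicate 3, 2 with no filter on low counts, and 10 in DESeq2, which also tested the genes under the filter. By family, 1 of 22 tested Cpr genes rose and 4 fell, 1 of 3 tested Twdl genes rose, and the single tested genes of Lcp and Pcp rose.

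**Figure D1:**
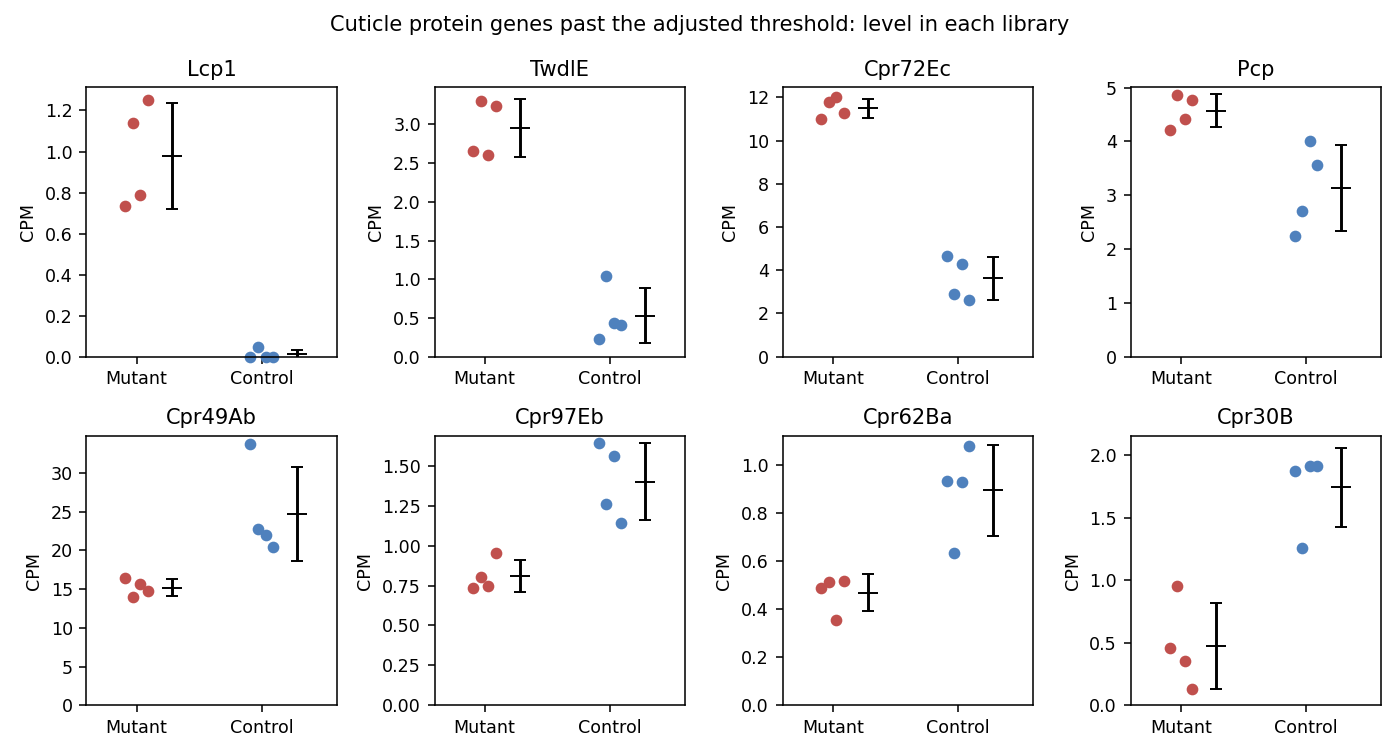
Level in CPM (linear axes from 0) of the 8 cuticle protein genes past the adjusted threshold, with 1 point per library, Mutant left and Control right. Black marks are the mean and SD of 4 libraries. In each panel the genotypes do not overlap. Lcp1 is at or under 0.0451 CPM in every control library.

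Cpr72Ec had the smallest adjusted p of the cuticle genes. Cpr72Ec is known as one of the main proteins of the corneal lens, the cuticular lens secreted over each facet of the compound eye. It was at 11.0, 11.8, 12.0 and 11.3 CPM in the mutants, against 4.66, 2.89, 4.30 and 2.63 CPM in the controls. The mutant libraries lay close together and all above the controls, none of which came near them. On the log2 scale it rose by 1.66 ± 0.16 (SE), with adjusted p = 0.000115 from edgeR, and it was called in all 18 settings run, the default one included.

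TwdlE, the only Tweedle gene called, was at 2.66, 3.30, 2.61 and 3.24 CPM in the mutants, against 0.224, 1.04, 0.440 and 0.413 CPM in the controls. The rise was 2.48 ± 0.34 (SE) in log2, with adjusted p = 0.00104 from edgeR, and no mutant overlapped a control. This gene shares its place with another. In the Ensembl annotation 71.9% of its exonic bases lie in exons of lectin-28C, a C-type lectin gene on the opposite strand, and the authors' use of strand is not given in the sources used here. lectin-28C averaged 19.1 ± 2.1 CPM in the mutant and 5.08 ± 3.34 CPM in the control (SD, n = 4 each), a log2 difference of 1.90 ± 0.40 (SE) with edgeR adjusted p = 0.0182. The log2 ratio of TwdlE to lectin-28C averaged -2.70 in the mutants and -3.25 in the controls (exact two-sided permutation test, p = 0.371, n = 4 each, also 0.371 when adjusted over the 4 gene ratios computed). Whether reads of the shared bases were told apart is not known, so the rise cannot be assigned to TwdlE alone.

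Lcp1, a gene of the third-instar larval cuticle, was read at a low but steady level in the mutants, with a single read in all controls together. It had 24, 31, 20 and 29 counts in the mutants (0.733, 1.14, 0.790 and 1.25 CPM), against 0, 1, 0 and 0 counts in the controls. The share of all counts was 87.7 times higher in the mutant, with an exact 95% interval of 15.4 to 3500, which covers counting error only. The log2 fold change fitted by edgeR, 5.90 ± 0.59 (SE) with adjusted p = 0.000129, depends on how a near-zero control is handled. Lcp1 passed the expression filter through the mutant libraries alone, and the other 5 Lcp genes, all of the 65A cluster, had between 0 and 2 counts in each mutant library.

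Pcp, the pupal cuticle protein gene that lies inside an intron of Gart on the opposite strand, was at 4.21, 4.87, 4.42 and 4.76 CPM in the mutants, against 2.24, 2.71, 4.01 and 3.56 CPM in the controls. The genotypes did not overlap, but the highest control came near the lowest mutant. The difference was 0.55 ± 0.18 (SE) in log2, just past the threshold at an edgeR adjusted p of 0.0494. This call was lost when any library other than control replicate 3 was left out (adjusted p 0.0608 to 0.116), and with a correction for transcript length (0.114). Gart, a purine synthesis gene, averaged 150 ± 8.71 CPM in the mutant and 187 ± 18 CPM in the control (log2 fold change -0.32, adjusted p 0.00963, edgeR), so host and nested gene were called in opposite directions.

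Among the genes that fell, Cpr49Ab had the highest level. It was at 16.5, 14.0, 15.7 and 14.8 CPM in the mutants, against 33.8, 22.7, 22.0 and 20.5 CPM in the controls. All mutants lay below all controls, of which control replicate 1 was the highest. The log2 fold change, -0.70 ± 0.15 (SE) with edgeR adjusted p = 0.0127, stayed between -0.87 and -0.51 in the alternatives, past the threshold in each.

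Cpr30B fell further from a lower level. It was at 0.458, 0.953, 0.355 and 0.130 CPM in the mutants, against 1.87, 1.26, 1.91 and 1.91 CPM in the controls. Mutant replicate 2 and control replicate 2 came nearest to each other, without overlap. edgeR gave a log2 fold change of -1.84 ± 0.41 (SE), adjusted p = 0.0114. Leaving out control replicates 2 and 4 together left only 2 controls and ended the call (log2 fold change -1.96, adjusted p 0.0511).

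Cpr97Eb and Cpr62Ba were the other genes that fell. Cpr97Eb was at 0.733, 0.806, 0.750 and 0.952 CPM in the mutants, against 1.64, 1.26, 1.56 and 1.14 CPM in the controls (log2 fold change -0.80 ± 0.21 SE, edgeR adjusted p = 0.0208). Cpr62Ba was at 0.488, 0.513, 0.355 and 0.519 CPM in the mutants, against 0.933, 0.632, 0.929 and 1.08 CPM in the controls (log2 fold change -0.92 ± 0.25 SE, edgeR adjusted p = 0.0270). For both, every mutant lay below every control, at 9 to 44 counts per library. Both calls depended on single libraries. That of Cpr97Eb was lost without replicate 1 or 3 of either genotype (adjusted p 0.0537 to 0.0610), and with no filter on low counts (0.0710). That of Cpr62Ba was lost without any of those libraries or control replicate 4 (0.0541 to 0.0761), in DESeq2 (0.0781), with the replicate block (0.0509) and with no filter on low counts (0.128).

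**Figure D2:**
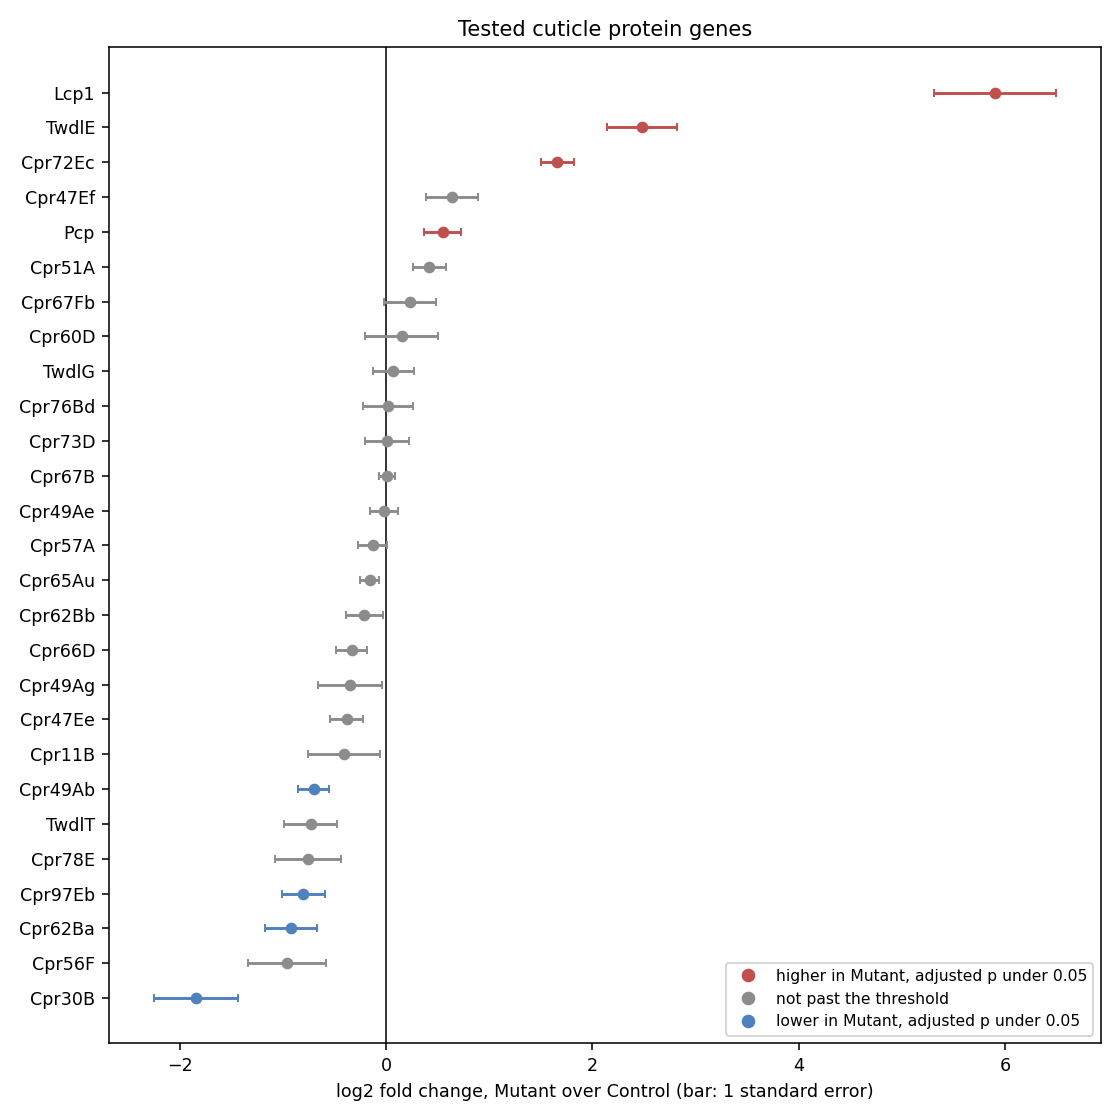
Log2 fold change, Mutant over Control, of the 27 tested cuticle protein genes, ordered by value, with bars of 1 standard error. Red points are the 4 genes that rose, blue points the 4 that fell and grey points the 19 that did not pass the threshold. Lcp1 at 5.90, TwdlE at 2.48 and Cpr72Ec at 1.66 stand at the top and Cpr30B at -1.84 at the bottom.

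Of the 3 most abundant transcripts among the 53 genes, Cpr49Ab alone was called. Per kilobase of exon, Cpr67B, Cpr65Au and Cpr49Ab together made up 60.7% of the summed level of the 53 genes in the mutant and 59.0% in the control. Cpr67B led at 40.5 CPM per kilobase in the mutant and 40.1 in the control. Its CPM values were 43.3, 39.9, 43.7 and 36.7 in the mutants and 43.2, 42.9, 41.8 and 34.0 in the controls, and these ranges overlapped almost fully. Its log2 fold change of 0.01 had a 95% interval from -0.15 to 0.18, and its sign turned in 6 alternatives.

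Cpr65Au followed at 28.1 CPM per kilobase in the mutant and 31.3 in the control. In CPM it was at 15.9, 14.7, 14.9 and 13.5 in the mutants, against 18.2, 17.2, 16.1 and 14.4 in the controls. The genotypes overlapped, and the log2 fold change was -0.16 (interval -0.33 to 0.01, adjusted p 0.223, edgeR). With a correction for transcript length it was -0.28 and past the threshold (adjusted p 0.0362). An antisense RNA gene covers 93.3% of its exonic bases in the annotation. Cpr49Ae, a neighbour of Cpr49Ab, was at 5.99 ± 0.656 CPM in the mutant and 6.05 ± 1.17 CPM in the control (SD, n = 4 each), with a log2 fold change of -0.02 and an interval of -0.30 to 0.26.

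The other cuticle genes with a mean of at least 2 CPM did not pass the threshold. Cpr47Ef was at 7.02, 6.27, 3.67 and 3.37 CPM in the mutants, against 4.18, 2.98, 3.13 and 2.79 CPM in the controls. Mutant replicates 1 and 2 were far above the other 2 mutants, which overlapped the controls (log2 fold change 0.64, interval 0.14 to 1.13, adjusted p 0.108, edgeR). Its adjusted p was 0.0331 with the replicate number as a block and 0.0475 without mutant replicate 4. Cpr51A was at 2.57 to 3.59 CPM in the mutants and 1.86 to 2.35 CPM in the controls, without overlap, with a log2 fold change of 0.42 that missed the threshold (edgeR adjusted p = 0.0978). It was 1 of 9 tested cuticle genes (33.3%) whose genotypes did not overlap, a property of 25.0% of all genes tested.

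Cpr47Ee averaged 2.99 ± 0.403 CPM in the mutant and 3.87 ± 0.610 CPM in the control (log2 fold change -0.38, adjusted p 0.121, edgeR). Cpr62Bb averaged 3.49 ± 0.191 CPM in the mutant and 4.02 ± 1.15 CPM in the control (log2 fold change -0.21, adjusted p 0.451). Cpr73D averaged 2.09 ± 0.561 CPM in the mutant and 2.08 ± 0.321 CPM in the control, and 9.70% of its exonic bases are shared with Ogdh on the opposite strand. Cpr57A averaged 5.26 ± 0.759 CPM in the mutant and 5.77 ± 0.855 CPM in the control (SD, n = 4 each). All its exonic bases are shared with the odorant-binding protein gene Obp57d, whose row held the same 8 counts, so this value cannot be assigned to either gene. The 9 tested genes below 2 CPM that were not called, Cpr56F, Cpr78E, Cpr11B, Cpr49Ag, Cpr67Fb, Cpr60D, Cpr76Bd, TwdlG and TwdlT, had log2 fold changes between -0.96 and 0.23. TwdlT had the smallest adjusted p of these (0.0748, edgeR), and leaving out replicate 1 of either genotype brought it past the threshold.

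Some genes that lie together differed in their pattern. Cytological names place several of the 53 genes in clusters, and 3 pairs of neighbours are given by the log2 ratio of their CPM in each library. They were picked after the values were seen, so the ratios are given as a description only. The ratio of Cpr49Ab to Cpr49Ae was 1.02 to 1.52 in the mutants and 1.87 to 2.14 in the controls. The ratio of Cpr47Ef to Cpr47Ee was 0.08 to 1.47 in the mutants and -0.58 to 0.05 in the controls. The ratio of Cpr62Ba to Cpr62Bb was -3.24 to -2.66 in the mutants and -2.60 to -1.82 in the controls. In these 3 pairs the genotypes did not overlap, narrowly for Cpr47Ef to Cpr47Ee (0.08 against 0.05). Cpr49Ab and Cpr62Ba were without overlap by themselves. Because of how the pairs were picked, this cannot show how neighbours in general behave.

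The remaining 26 cuticle genes, with means of 0.107 to 1.56 CPM, did not reach the level of the filter in enough libraries. That filter asks for about 10 counts in at least 4 libraries. A gene read mainly in few libraries therefore falls under it by design, even where its mean is above that of some tested genes. They were 11 Cpr, 8 Twdl and 5 Lcp genes, Ccp84Ag and Edg91. Most of their reads came from 2 of the 8 libraries. Summed over the 26 genes, the mutants had 96, 78, 58 and 45 counts, against 64, 977, 43 and 388 counts in the controls. In CPM these sums were 1.95 to 2.93 in the mutants, 44.1 in control replicate 2, 20.0 in control replicate 4, and 2.39 and 2.10 in control replicates 1 and 3. No gene of the 26 was at 0 in control replicates 2 and 4, while 6 to 12 of them were at 0 in each of the other 6 libraries.

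TwdlN had the highest mean of these. TwdlN, TwdlM, TwdlB, Lcp65Ae, Cpr47Eg and Cpr65Ea were chosen after their values were seen. TwdlN had 0 counts in all 4 mutants and 0, 226, 0 and 44 counts in the controls. TwdlM had 4, 0, 0 and 0 counts in the mutants, against 0, 84, 0 and 82 in the controls. TwdlB had 0 counts in all 4 mutants and 0, 55, 1 and 54 in the controls. TwdlN, TwdlM and TwdlB were therefore read mainly in the same pair of control libraries, with TwdlM and TwdlB at nearly equal counts in both. Not every Tweedle gene under the filter had this pattern, as Twdlalpha shows further on.

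The larval genes of the 65A cluster and Cpr47Eg leaned to control replicate 2. Lcp65Ag2, the Lcp gene with the highest mean, had 1, 0, 1 and 2 counts in the mutants, against 2, 87, 1 and 16 in the controls. Lcp65Ae had 1, 0, 0 and 0 counts in the mutants, against 0, 76, 1 and 12 in the controls. Cpr47Eg had 1, 2, 1 and 0 counts in the mutants, against 0, 106, 2 and 8 in the controls. Cpr65Ea leaned the other way, with 0 counts in all 4 mutants and 0, 13, 0 and 21 in the controls. Lcp65Ag1, Lcp65Ag2 and Lcp65Ag3 are near-identical copies, so the split of reads among them is uncertain.

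**Figure D3:**
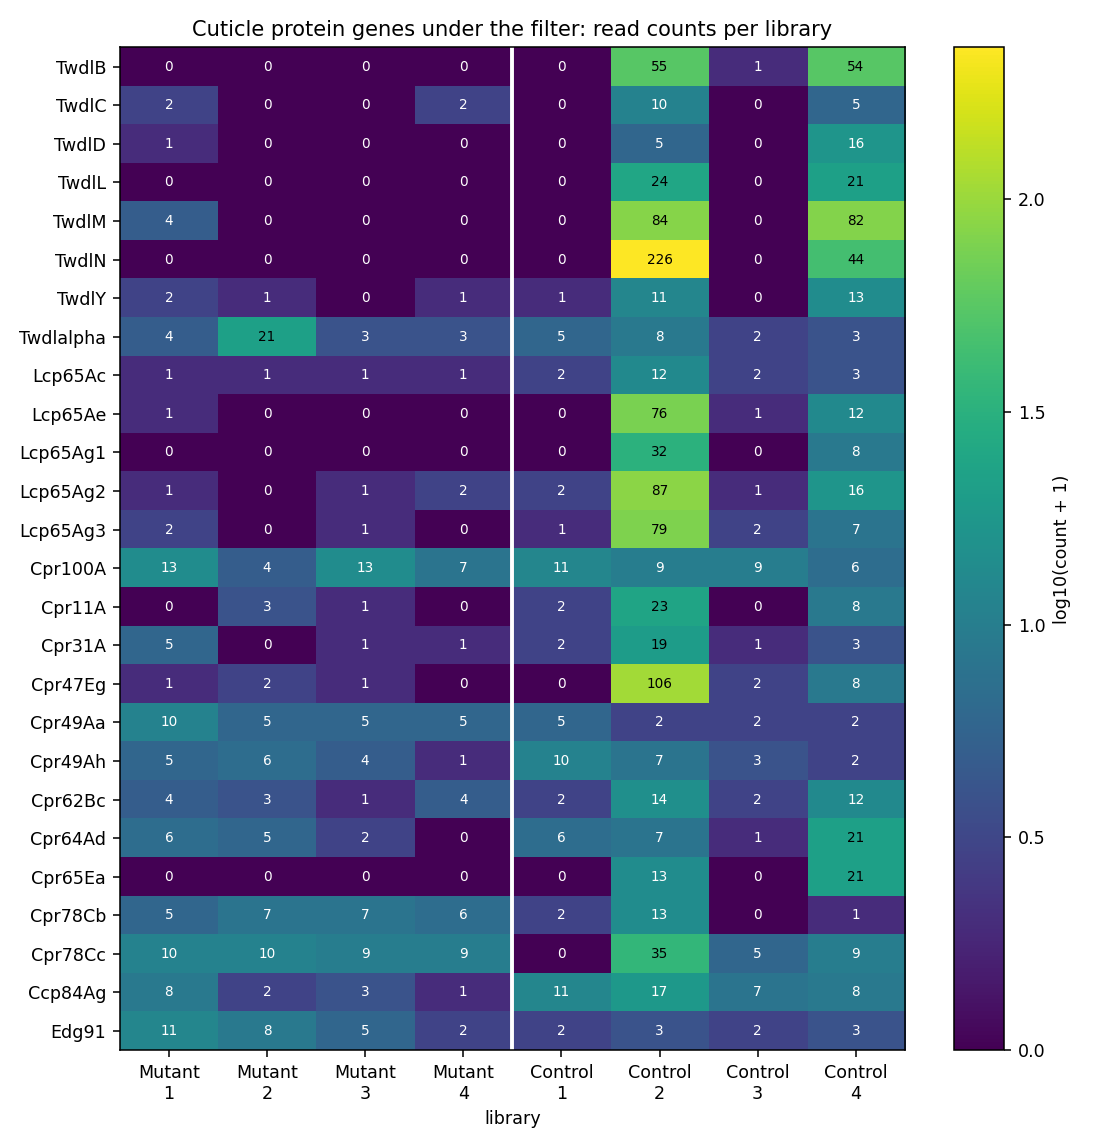
Read counts of the 26 cuticle protein genes under the expression filter in each library, Mutant libraries left of the white line and Control libraries right of it, on a colour scale of log10(count + 1) with the count printed in each cell. Control replicates 2 and 4 hold most of the counts, up to 226 for TwdlN.

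A single library held over 50% of the summed CPM in 16 of the 53 cuticle genes. It was control replicate 2 for 10 and control replicate 4 for 6. Over the whole table the same measure, chosen after the values were seen, picked 1077 genes (8.91%) for mutant replicate 2, none of them a cuticle gene, 60 genes (0.497%) for control replicate 2 and 6 genes (0.0497%) for control replicate 4. All 6 genes of control replicate 4 were cuticle genes: TwdlB, TwdlD, TwdlL, TwdlM, Cpr64Ad and Cpr65Ea. The 16 cuticle genes were all under the filter, which itself sets aside genes read mainly in few libraries. Among all 1557 genes under it, 71.2% had 1 library over 50%, against 61.5% of the 26 cuticle genes. For mutant replicate 2 these shares were 66.9% and 0%. They were 3.66% and 38.5% for control replicate 2, and 0.385% and 23.1% for control replicate 4. Marker lists of other stages and tissues had the following levels in these libraries. The early embryo list (14 of 14 with a row) summed to 69.4 to 87.0 CPM in the mutants, 71.0 CPM in control replicate 2, 78.8 CPM in control replicate 4, and 88.7 and 118 CPM in the other controls. Most of this was slam, at 47.7 to 59.1 CPM in the mutants and 45.5 to 74.7 CPM in the controls. Of 11 tested genes of the list, sna and odd fell in the mutant (adjusted p 0.0134 and 0.0168, edgeR), against 11.1% of all genes that fell. The larval fat body and salivary gland list (3 of 10 with a row) summed to 2.44 to 4.43 CPM in the mutants, 5.10 CPM in control replicate 2, 8.62 CPM in control replicate 4, and 12.3 and 8.36 CPM in the other controls. Most of that sum was Lsp1beta, which fell in the mutant (log2 fold change -1.58, adjusted p 0.0229, edgeR). Lsp1gamma of the same list rose (1.42, adjusted p 0.0201, edgeR). The testis list summed to 135 CPM in control replicate 2 and 138 CPM in control replicate 4, with 5 and 3 of its genes at 0 counts, and to 112 and 120 CPM in control replicates 1 and 3, with 8 at 0 in each. Of the male accessory gland list, 6 and 10 genes were at 0 counts in control replicates 2 and 4, and 7 and 5 in control replicates 1 and 3. The part of other tissues or stages in these reads was not tested.

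These genes add no call to the comparison of genotypes in edgeR. With no filter on low counts, edgeR called none of the 26 (smallest adjusted p 0.0559, and 12 of 26 with an unadjusted p under 0.05), while DESeq2 called 7 of them lower in the mutant. Those 7 were Ccp84Ag, Cpr47Eg, Lcp65Ae, Lcp65Ag2, Lcp65Ag3, TwdlB and TwdlN, with adjusted p-values from 0.00352 for TwdlB to 0.0454 for TwdlN. Apart from Ccp84Ag, their counts in control replicates 1 and 3 were 0 to 2. Without control replicates 2 and 4, an alternative chosen after seeing the data, 3 of the 4 genes that rose kept their call (Cpr72Ec, Lcp1 and TwdlE) and 2 of the 4 that fell kept theirs (Cpr49Ab and Cpr97Eb).

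A few of the 26 had another pattern, of which Twdlalpha, Cpr100A, Cpr49Aa and Cpr49Ah were chosen after their values were seen. Ccp84Ag, the only gene of the 84A cluster with a row, had 8, 2, 3 and 1 counts in the mutants, against 11, 17, 7 and 8 in the controls, and the CPM values did not overlap. Edg91, known from pupal cuticle, had 11, 8, 5 and 2 counts in the mutants, against 2, 3, 2 and 3 in the controls. Twdlalpha was highest in mutant replicate 2, with 4, 21, 3 and 3 counts in the mutants and 5, 8, 2 and 3 in the controls, and that library also held the male markers. Cpr100A, Cpr49Aa and Cpr49Ah had 1 to 13 counts in every library.

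The corneal lens genes did not move as one. Besides Cpr72Ec, the list holds Crys (drosocrystallin), retinin and Cpr66D, the other named proteins of the lens. Crys was at 11.4, 13.8, 13.7 and 10.3 CPM in the mutants, against 7.50, 6.32, 6.31 and 7.18 CPM in the controls, without overlap, and rose by 0.85 on the log2 scale (SE 0.12, edgeR adjusted p = 0.000855). Cpr66D was at 3.54, 3.23, 2.57 and 2.94 CPM in the mutants, against 4.48, 3.66, 3.37 and 3.92 CPM in the controls, with overlap. Its log2 fold change was -0.33 (interval -0.62 to -0.04, adjusted p 0.144, edgeR). retinin, the most abundant by CPM, was at 34.8, 27.9, 25.9 and 20.2 CPM in the mutants and 38.3, 26.6, 26.7 and 29.7 CPM in the controls (log2 fold change -0.16, adjusted p 0.595). So 2 of 4 lens genes rose and none fell in all 18 settings, against 8.46% of all genes that rose. One of the 2 is Cpr72Ec, and the list was chosen with its call known. Crys was also the only call among 5 tested structural cuticle genes that the symbol rule does not take. Vajk3, another gene of that list, chosen after its values were seen, was at 0.549, 0.660, 0.750 and 0.562 CPM in the mutants, against 0.373, 3.16, 0.0978 and 1.29 CPM in the controls, and control replicates 2 and 4 were its highest libraries as well.

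Other genes of cuticle formation were read from lists that do not overlap the 53 genes. Of 16 tested tanning and pigmentation genes, which make and oxidise the catechols that harden and darken cuticle, 6 rose and none fell, against 8.46% of all genes that rose. ple, the tyrosine hydroxylase gene, was at 21.8 ± 1.05 CPM in the mutant and 16.6 ± 0.764 CPM in the control (log2 fold change 0.39, adjusted p 0.00238, edgeR). stw, the laccase gene of tanning, was at 28.5 ± 0.848 CPM in the mutant and 21.5 ± 1.73 CPM in the control (0.41, adjusted p 0.00195). yellow-f2, a dopachrome conversion enzyme gene, was at 15.6 ± 0.972 CPM in the mutant and 11.0 ± 0.583 CPM in the control (0.50, adjusted p 0.00141). Pu, the GTP cyclohydrolase gene that supplies the cofactor of ple, rose by 0.27 on the log2 scale (adjusted p 0.0180). The number that rose was 4 to 6 when 1 library was left out, 3 without control replicates 2 and 4, and 1 gene fell without mutant replicate 3. Of 5 tested genes of the tanning hormone and its relatives none was called (edgeR), and of 4 tested obstructor genes, which encode chitin-binding matrix proteins, none was called either. The median log2 fold change was 0.28 and 0.00 in these 2 lists.

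Of 13 tested genes of chitin synthesis and assembly 6 fell and none rose, against 11.1% of all genes that fell. Cda5, a chitin deacetylase gene, was at 11.6 ± 1.21 CPM in the mutant and 16.3 ± 1.07 CPM in the control (log2 fold change -0.49, adjusted p 0.00364, edgeR). Chs2, the chitin synthase gene of the gut, was at 26.6 ± 2.66 CPM in the mutant and 39.1 ± 6.36 CPM in the control (-0.56, adjusted p 0.00945). Gfat1, which starts the hexosamine pathway, fell by 0.31 (adjusted p 0.0185). serp, a chitin deacetylase gene of the tracheal and epidermal matrix, was at 2.35, 2.60, 2.29 and 2.73 CPM in the mutants, against 3.66, 6.54, 3.52 and 5.42 CPM in the controls (-0.94, adjusted p 0.00987). Control replicates 2 and 4 were again its highest libraries, and the number of genes in the list that fell was 3 without them. Of 6 tested zona pellucida genes of the apical matrix, which anchor cuticle to the cell, dpy and neo fell and qsm rose (adjusted p 0.00234, 0.0275 and 0.0338, edgeR). Of all genes tested 11.1% fell and 8.46% rose, and a list of 6 is too short to set against these shares. The call of qsm was lost when any single library was left out, and that of 1 of the other 2 without control replicate 2 or mutant replicates 1, 2 or 4.

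**Figure D4:**
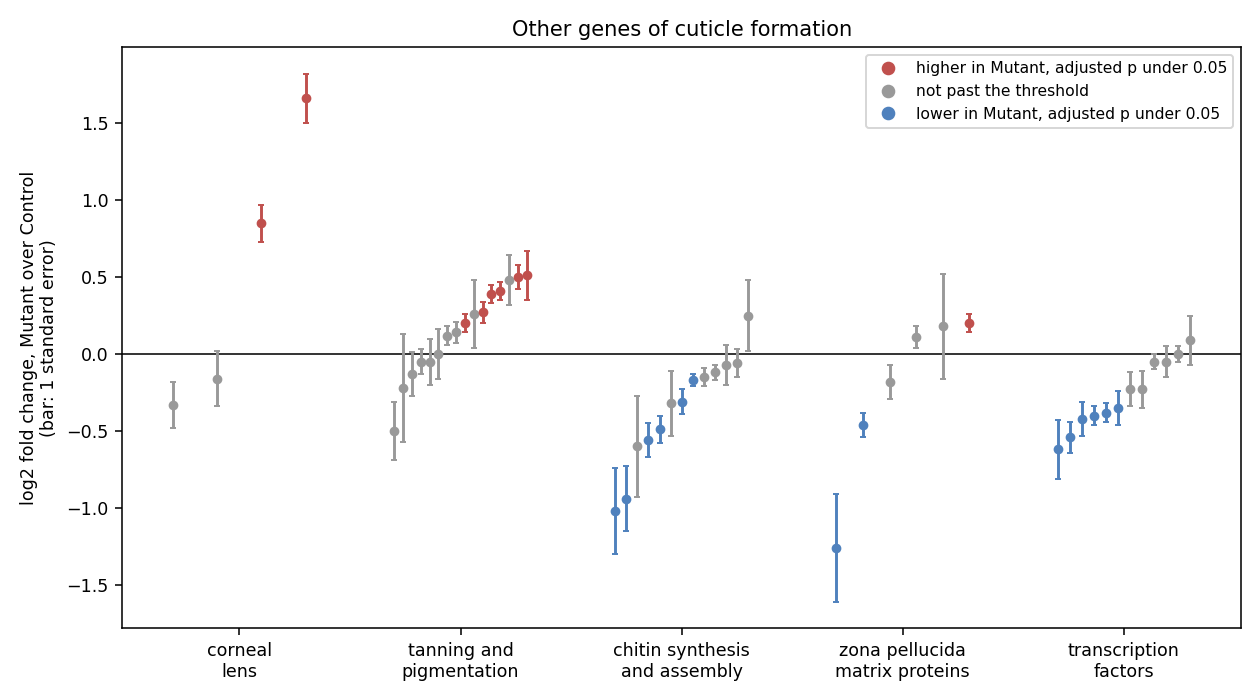
Log2 fold change, Mutant over Control, of the tested genes in 5 lists of cuticle formation, with bars of 1 standard error. Red points rose, blue points fell and grey points did not pass an adjusted p of 0.05. In the tanning list 6 of 16 are red, in the chitin list 6 of 13 are blue, and in the transcription factor list 6 of 12 are blue. The chitin list also holds Chs2, the chitin synthase gene of the gut.

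Of 12 tested transcription factor genes known to act on cuticle genes or in the ecdysone cascade before a moult, 6 fell and none rose, against 11.1% of all genes that fell. Eip75B was at 68.2 ± 5.06 CPM in the mutant and 88.9 ± 4.07 CPM in the control (log2 fold change -0.38, adjusted p 0.00154, edgeR). grh (grainy head), a regulator of epidermal barrier genes, was at 9.99 ± 1.42 CPM in the mutant and 13.3 ± 1.06 CPM in the control (-0.42, adjusted p 0.0236). br and vri fell by 0.54 and by 0.40. ftz-f1, which acts on cuticle genes before a moult and was chosen after its values were seen, lay within the spread, at 168 to 183 CPM in the mutants and 176 to 192 CPM in the controls. With a correction for transcript length 2 genes of this list fell, and without control replicate 1 3 did.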

How the data were processed

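PolyA RNA of whole females was sequenced in 4 mutant and 4 control libraries. The authors deposited 1 table of whole-number read counts per gene, not normalized, since its columns sum to different totals. The submitters' processing notes name the build dm3 and the tool DESeq, without version or role. No source used here gives the aligner, counting program, annotation or strand setting, so reads of overlapping or near-identical genes may be shared, split or dropped.

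Each column carried the name of its sample, and 0 stayed unmapped. The 1 row that names no gene (0.0154% to 0.0176% of a library's counts) was left out. CG numbers were matched to symbols through the RefSeq table of Release 6, by current locus tag for 11482 of 12082 rows and for all 53 cuticle genes. An older synonym matched 456 rows, 84 matched several genes and 60 none. Exonic lengths and overlaps came from the Ensembl BDGP6 annotation. Because the builds differ, no coordinates are given, and no sequences are printed.

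Counts were filtered with filterByExpr (minimum count 10), scaled with TMM and tested two-sided by the robust quasi-likelihood method with genotype as the only term (edgeR 4.0.16, limma 3.58.1, R 4.3.3). Adjustment was by Benjamini-Hochberg over all genes tested, with a threshold of 0.05. CPM uses the TMM-scaled total. Standard errors were taken as the size of the log2 fold change over the root of F, and intervals are 95% intervals from it. The ratio of TwdlE to lectin-28C was tested with an exact two-sided permutation test in scipy 1.17.1, which cannot go below 0.0286 for 4 against 4 libraries. Tables and plots were made with Python 3.11.15, pandas 2.3.3 and matplotlib 3.10.9. Replicate libraries differed beyond sampling noise (chi-square per degree of freedom 10.4 to 36.3). Each pools 2 collections, and p-values measure the spread between these pools. Alternatives were RLE and upper quartile scaling, no filter, a filter at 1 CPM in 4 libraries, DESeq2 1.42.0, the replicate number as a block, an offset for transcript length, both together, each library left out, and control replicates 2 and 4 left out, the last chosen after seeing the data.

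The cuticle genes and all lists were chosen with earlier results of these data known. Named genes are those past the threshold, those with a mean of at least 2 CPM, the gene of highest mean in each family, and up to 4 per list by adjusted p. Genes named beyond this rule were chosen after their values were seen, or stand among all genes of a count. The lists cover chitin synthesis, obstructor proteins, tanning enzymes, tanning hormone, structural genes outside the rule, corneal lens, zona pellucida proteins, transcription factors, and markers of testis, accessory gland, early embryo, and larval fat body and salivary gland.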

Additional observations from a re-analysis of the deposited data

Results flagged for a closer look

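In 18 of 150 groups of 4 libraries, 1 library lay far from the other 3 (gap over range above Dixon's 95% value, which chance passes in about 1 of 20 groups). Control replicate 2 was the library in 7 of these, control replicate 1 in 4, mutant replicate 1 in 3, mutant replicate 2 in 2, and mutant replicate 4 and control replicate 4 in 1 each. No explanation of these values was tested.

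Control replicate 2 was far above the other controls in Cpr47Eg (4.78 CPM, the others 0 to 0.413), Lcp65Ag3 (3.57 CPM, the others 0.0373 to 0.362), Cpr31A (0.858 CPM, the others 0.0489 to 0.155), Ccp84Ag (0.767 CPM, the others 0.342 to 0.413), Cpr78Cb (0.587 CPM, the others 0 to 0.0746) and neo (2.39 CPM, the others 0.981 to 1.08). In Cpr30B, which fell in the mutant, it was the lowest control (1.26 CPM, the others 1.87 to 1.91).

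Control replicate 1 was the highest control in Cpr49Ab (33.8 CPM, the others 20.5 to 22.7), Chs2 (48.6 CPM, the others 34.8 to 36.9), odd (12.6 CPM, the others 8.80 to 8.99) and Cpr49Aa (0.187 CPM, the others 0.0903 to 0.103). Without that library Cpr49Ab still fell in the mutant, by 0.51 on the log2 scale. Control replicate 4 was the lowest control in Cpr67B (34.0 CPM, the others 41.8 to 43.2).

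Among the mutants, replicate 1 was the highest in TwdlT (1.40 CPM, the others 0.908 to 0.948) and TwdlM (0.122 CPM, the others 0) and the lowest in Cpr78Cb (0.153 CPM, the others 0.257 to 0.276). Mutant replicate 2 was the highest in Twdlalpha (0.770 CPM, the others 0.118 to 0.130) and the lowest in Cda4 (0.0733 CPM, the others 0.244 to 0.276). Mutant replicate 4 was the highest in yellow-f2 (17.0 CPM, the others 15.0 to 15.2).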

How the results depend on the processing

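Cpr72Ec, TwdlE and Cpr49Ab kept their direction and call in all 18 settings, and Lcp1 in 17, since the filter at 1 CPM removes it. Cpr30B was called in 17, Cpr97Eb in 13, Cpr62Ba in 8 and Pcp in 5. The number of cuticle genes that fell was 4, and it was 10 in DESeq2, 2 with no filter on low counts, 2 without control replicates 2 and 4, and 2 to 4 with 1 library left out (2 without control replicate 3 or mutant replicate 3). The number that rose was 3 or 4 in those settings. Over all genes tested, 1499 rose with upper quartile scaling, and without control replicates 2 and 4, which leaves fewer samples, 522 rose and 701 fell. With 1 library left out, 604 to 760 rose and 872 to 986 fell. Only genes that were never called turned in sign. Cpr49Ae was at 0.03 with upper quartile scaling and at -0.11 to 0.12 with 1 library left out, Cpr62Bb at -0.32 to 0.01 and Cpr73D at -0.17 to 0.14. Cpr67B was at -0.07 with the length offset, with or without the block, at -0.05 without control replicates 2 and 4, and at -0.06 to 0.06 with 1 library left out. The cause was not tested. Replicate numbers did not pair the libraries (correlations of same-numbered deviations 0.207, -0.0522, -0.097 and 0.043), and not every library correlated best with its own number. With the replicate block 1014 genes rose and 1391 fell, 5 and 3 of them cuticle genes, and Cpr73D was at -0.01. Low counts in most libraries limit the 26 genes under the filter, where 3 counts equal 0.0916 to 0.155 CPM.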

Other observations

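Most genes outside the 53 for which control replicate 2 held over 50% of the summed CPM are known by a CG number alone. The few with a name follow. ImpE2 and ImpL1, ecdysone-inducible genes of imaginal discs, had 74 and 29 counts in control replicate 2, against 1 to 9 and 2 to 7 counts in the mutants and 11 to 23 and 2 to 9 counts in the other controls. sha (shavenoid), which shapes cuticular hairs, had 23 counts there, 1 to 5 counts in the mutants and 1 to 7 counts in the other controls. prc (pericardin), a collagen-like matrix gene, had 62 counts there, 3 to 8 counts in the mutants and 0 to 12 counts in the other controls. EAChm had 89 counts there, 1 to 7 counts in the mutants and 12 to 23 counts in the other controls. nur had 66 counts there, 0 to 7 counts in the mutants and 1 to 12 counts in the other controls. Muc26B, a mucin gene, had 28 counts there, 1 to 3 counts in the mutants and 0 to 4 counts in the other controls. Among genes with no other name, CG10953 had 0 counts in every mutant and 0, 220, 0 and 33 counts in the controls, and CG13731 had 0, 0, 1 and 0 counts in the mutants and 0, 217, 3 and 28 counts in the controls. In both, control replicate 4 was the second library, as it was for TwdlN. These genes were chosen after their values were seen, and no test was made.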
